A study of Mus musculus with 5 samples.

Results

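Fc receptors and the adaptors that carry their signal were followed in kidney cortical tissue of *Fnip1* null and wildtype mice. The 9 genes, out of 24421 gene symbols counted, were 4 Fc gamma receptors (*Fcgr1*, *Fcgr2b*, *Fcgr3* and *Fcgr4*), the adaptors *Fcer1g* and *Tyrobp*, the linked receptors *Trem2* and *Clec7a*, and the kinase *Syk*. They were picked by symbol from a family of related immune genes, with the difference between *Fnip1* null and wildtype mice in these same libraries already known. Differences between the genotypes in these genes are therefore given as a description, and their test values support nothing beyond it.

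RNAseq libraries were made from total RNA of flash-frozen cortex, 1 library per mouse, on the C57BL6J strain. The *Fnip1* null group (genotype *Fnip1*-/-) held 3 independent mice (8637, 9210 and 9121) and the wildtype group (*Fnip1*+/+ in the labels) held 2 (9055 and 9056). The null allele came from ENU (chemical) mutagenesis and is constitutive, so every cell type of these mice carries it, leukocytes included, and such mice are known for a block in B cell development. The study's text also calls the controls *Fnip1*+/-, and a legend counts more wildtype mice than were analysed here. They are called wildtype after their labels, and sex and age are not given in the labels. *Fnip1* encodes a partner of folliculin, the protein lost in Birt-Hogg-Dube syndrome.

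Fc receptors bind the constant part of antibodies and so let leukocytes, above all macrophages, neutrophils and mast cells, respond to immune complexes. Activating receptors signal through an ITAM (a paired tyrosine motif) that often sits on a separate adaptor chain, and the phosphorylated ITAM recruits the kinase Syk. The inhibitory receptor Fcgr2b carries its own ITIM motif instead and recruits phosphatases that damp this signal, so that the balance of activating and inhibitory receptors sets the threshold of a cell. In kidney these receptors are best known from immune complex glomerulonephritis and from resident macrophages.

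Reads counted on genes ran from 15799114 to 19132145 per mouse, and values are given as normalized CPM (counts scaled by library size and TMM, whose factors ran from 0.914 to 1.09). A total of 3 counts in a mouse equals 0.158 to 0.186 CPM. *Fnip1* was at 21.0, 16.9 and 16.0 CPM in null mice 8637, 9210 and 9121 and at 51.8 and 48.7 CPM in wildtype mice 9055 and 9056 (log2 fold change −1.48, SE 0.138, adjusted p = 0.033 in edgeR's quasi-likelihood test). It was lower in every null mouse, as labelled. Markers of the proximal tubule, the main cell of the cortex, summed to 8517 to 11317 CPM in null and 12372 to 13918 CPM in wildtype mice. Null mouse 9121 stood apart: *Xist*, expressed from the inactive X chromosome, was at 314 CPM there and at most 1.41 CPM in the other 4 mice, and *Uty*, *Ddx3y* and *Kdm5d*, on the Y chromosome, had 0 counts there. Sex, as these genes read it, therefore differed within the null group, and results are also given without mouse 9121.

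The start regions of the activating receptors are shown first, because their genes lay opposite to the inhibitory *Fcgr2b* in direction. The 150 bases before the start were taken from RefSeq on GRCm38.p6, 5′ to 3′ along the gene. Capitals mark a PU.1 core (GAGGAA, or TTCCTC where it lies on the other strand), the motif of the myeloid factor encoded by *Spi1*, and in *Fcgr1* also a STAT motif (TTCNNNGAA), the kind of site through which interferon gamma acts.
Fcgr1 (chr3:96293970-96294119, minus strand): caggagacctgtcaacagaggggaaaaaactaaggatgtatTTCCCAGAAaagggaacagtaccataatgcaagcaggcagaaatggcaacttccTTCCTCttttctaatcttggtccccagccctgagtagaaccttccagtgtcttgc
Fcgr3 (chr1:171059404-171059553, minus strand): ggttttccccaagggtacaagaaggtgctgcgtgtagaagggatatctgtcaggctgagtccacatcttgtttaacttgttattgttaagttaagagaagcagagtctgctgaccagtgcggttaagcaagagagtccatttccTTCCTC
Fcgr4 (chr1:171018776-171018925, plus strand): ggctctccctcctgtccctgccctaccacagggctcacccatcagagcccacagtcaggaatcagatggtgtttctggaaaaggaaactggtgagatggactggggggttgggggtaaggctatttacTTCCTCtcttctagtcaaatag
The PU.1 core began 55, 6 and 22 bases before the start of *Fcgr1*, *Fcgr3* and *Fcgr4*. Over the whole start region of 300 bases (250 before the start and 50 after it), searched on both strands, 8 of the 11 start regions of the 8 members with an entry held the core, against 28.3% of 32851 regions of this length. *Fcgr3*, *Syk* and *Clec7a* have 2 overlapping or alternative starts each, so these regions are not independent, and 6 of the 8 members held it in at least 1 region. *Fcgr2b* and *Fcer1g* were the 2 without this exact string, and *Tyrobp* had no entry. Other forms of the PU.1 motif were not searched, so these 2 genes may still hold one. The STAT motif was in 8.3% of all regions and in *Fcgr1* alone among the members. The E-box CACGTG, bound by the TFEB family, was in 7.15% of regions and in no member. The motifs were chosen after the expression values were seen, and a match is no evidence of binding.

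The activating Fc gamma receptors were 2.78-fold (*Fcgr3*) to 3.41-fold (*Fcgr1*) higher in *Fnip1* null than in wildtype cortex, each with all 3 null mice above both wildtype mice. *Fcgr1*, the high-affinity IgG receptor of macrophages and dendritic cells, was at 1.36, 1.90 and 3.43 CPM in null mice 8637, 9210 and 9121 and at 0.621 and 0.686 CPM in wildtype mice 9055 and 9056. The wildtype values lay close together while the null mice spread, with 9121 well above the others. This gave a log2 fold change of 1.77 (SE 0.513), and 1.30 without mouse 9121.

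*Fcgr3*, the low-affinity IgG receptor that pairs with Fcer1g on most myeloid and NK cells, was at 6.07, 7.37 and 9.50 CPM in null and 3.04 and 2.46 CPM in wildtype mice. The lowest null mouse was well clear of the highest wildtype mouse. Its log2 fold change was 1.48 (SE 0.261), the best determined among the activating receptors, and 1.29 without 9121.

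*Fcgr4*, a receptor of intermediate affinity for IgG2 subclasses on monocytes, macrophages and neutrophils, was at 3.36, 3.51 and 4.59 CPM in null and 1.55 and 0.858 CPM in wildtype mice. Here the null mice were close to each other and the wildtype mice were further apart. Its log2 fold change was 1.67 (SE 0.332), and 1.52 without 9121.

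The inhibitory receptor went the other way. *Fcgr2b*, found on B cells, myeloid cells and endothelium, was at 28.2, 28.3 and 30.9 CPM in null and 34.9 and 44.0 CPM in wildtype mice. All null mice were below both wildtype mice, and mouse 9121 was not unusual here. The log2 fold change was −0.44 (SE 0.127), a level of 0.738 times wildtype, and −0.48 without 9121. *Fcgr2b* was the most abundant member by counts, with 476 to 770 per mouse, so its opposite direction does not rest on few reads.

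**Figure D1:**
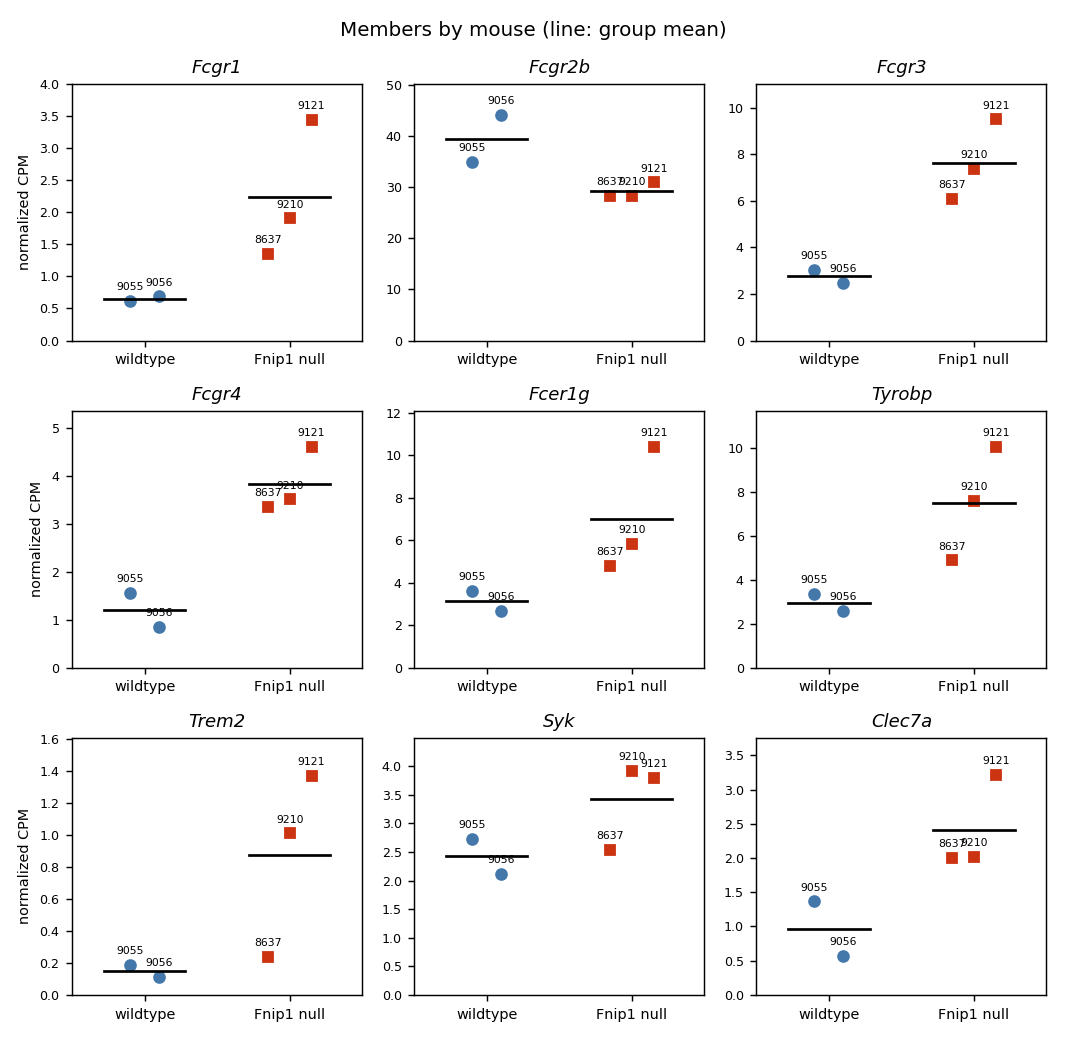
Normalized CPM (vertical axes, each with its own range from 0) of the 9 genes in wildtype (blue circles) and *Fnip1* null (red squares) mice, labelled by mouse number, with a line at the group mean. Null mice lie above both wildtype mice in 7 genes, below both in *Fcgr2b* and overlap them in *Syk*.

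Set against each other, the activating receptors took a larger share of the 4 receptors in null than in wildtype mice. Levels were compared between genes per kilobase of exon (CPM per kb, exon lengths from GENCODE M21). The ratio of activating receptors (*Fcgr1*, *Fcgr3* and *Fcgr4* summed) to *Fcgr2b* was 1.37, 1.59 and 1.96 in null mice (8637, 9210 and 9121), against 0.536 and 0.311 in the wildtype pair. It was below 1 in both wildtype mice and above 1 in every null mouse, and the mean ratio was 3.88 times higher in null mice (1.64 ± 0.297, SD, n = 3, against 0.423 ± 0.159, SD, n = 2). *Fcgr2b* made up 42.1%, 38.6% and 33.8% of the 4 receptors in null and 65.1% and 76.3% in wildtype mice. In CPM, without division by length, *Fcgr2b* exceeded the activating receptors in every mouse, with ratios of 0.382, 0.452 and 0.568 in null and 0.149 and 0.0909 in wildtype mice, so whether the ratio passes 1 depends on the exon lengths used. The mean ratio in CPM was 3.89 times higher in null mice. Because the ratio is formed within a mouse, it does not depend on how the libraries were scaled. *Fcgr3* and *Fcgr2b* lie in the same cluster and have similar exons: 9.58% of the 50-base words of *Fcgr3* also occur in *Fcgr2b*, and reads there may not have been counted for either. In addition, 155 exon bases (2.68%) of *Fcgr2b* overlap *Gm38204* on the opposite strand. The *Fcgr4* to *Fcgr3* ratio overlapped between the genotypes (0.658 to 0.765 in null and 0.482 to 0.705 in wildtype mice).

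In bulk tissue, more or fewer cells of a type and more or less RNA per cell cannot be told apart, and this holds for every value here. The cell types that carry Fc receptors were read from markers. Of 16 macrophage and monocyte markers, 15 were tested. A positive log2 fold change was found in 14 of these (median 1.25, and 0.91 without 9121), beside 7009 of the 13874 genes tested. None passed the threshold in edgeR's quasi-likelihood test, and 10 did in its exact test, beside 0.404% and 3.03% of all genes called higher. *Adgre1*, which encodes F4/80, was at 7.37, 8.98 and 13.7 CPM in null and 3.67 and 3.26 CPM in wildtype mice. *Csf1r*, the receptor for the macrophage growth factor and the most abundant of these markers, was the exception with 38.2, 36.4 and 63.9 CPM in null and 72.4 and 68.4 CPM in wildtype mice. The summed level of the list ranged from 159 to 339 CPM in null and 133 to 164 CPM in wildtype mice, which overlap. The B and plasma cell markers summed to 0.416 to 0.792 CPM in null and 5.32 to 8.51 CPM in wildtype mice, mostly *Jchain*, and *Cd79a* had 0 counts in all null mice. These B cell markers moved in the same direction as *Fcgr2b*, at a far lower level, and their part in its difference was not tested.

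Neutrophil markers were low but higher in null mice, summing to 8.49 to 11.9 CPM against 1.77 to 2.30 CPM, with *S100a9* past the threshold and *Camp*, *Mpo* and *Elane* at 0 in all 5 mice. *Ly6g* was not among the symbols counted. Dendritic cell markers summed to 10.3 to 16.1 CPM in null and 5.95 to 8.45 CPM in wildtype mice. For T and NK cell markers the sums were 6.95 to 15.8 and 2.35 to 5.47 CPM. Mast cell and basophil markers, nearly all *Kit*, summed to 28.3 to 48.0 and 22.5 to 25.3 CPM. *Kit* had 391 to 785 counts per mouse and the other markers of that list at most 7. That sum is therefore in effect the level of *Kit* alone. Platelet markers overlapped (7.19 to 7.92 and 7.78 to 9.75 CPM). Among other cells of the cortex, markers of nephron segments and vessels overlapped in sum (8145 to 11829 and 7470 to 8466 CPM), with the podocyte gene *Nphs1* past the threshold and higher in null mice. The part of these cells in the differences of the 9 genes was not tested.

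Both adaptors were higher in every null mouse, 2.23-fold for *Fcer1g* and 2.55-fold for *Tyrobp*. Whether these folds differ from those of the activating receptors was not tested. *Fcer1g*, the common gamma chain that carries the ITAM for Fcgr1, Fcgr3, Fcgr4 and the IgE receptor, was at 4.77, 5.83 and 10.4 CPM in null mice 8637, 9210 and 9121 and at 3.60 and 2.69 CPM in wildtype mice. Mouse 9121 was far above the other null mice. The log2 fold change was 1.16 (SE 0.385), and 0.76 without 9121.

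*Tyrobp* (DAP12), the ITAM adaptor of Trem2 and of many myeloid and NK receptors, was at 4.89, 7.61 and 10.1 CPM in null and 3.36 and 2.57 CPM in wildtype mice. The null mice were spread evenly and none overlapped wildtype. Its log2 fold change was 1.35 (SE 0.347), and 1.08 without 9121. The ratio of *Fcer1g* to *Tyrobp* per kb was 0.745, 0.584 and 0.787 in null and 0.820 and 0.797 in wildtype mice, lower in every null mouse, with a mean 0.873 times that of wildtype.

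Relative to the macrophage markers, the size of the difference in both adaptors depended on the markers used, and for *Fcer1g* also its direction. The null mean of *Fcer1g* was 1.41 times wildtype on the 16 markers and 0.948 times without *Lyz2* and *Csf1r*. *Csf1r* made up 72.4 of 164 and 68.4 of 133 CPM of the 16-marker sum in wildtype mice 9055 and 9056. In null mice 8637, 9210 and 9121 it made up 38.2 of 159, 36.4 of 203 and 63.9 of 339 CPM. Per 1000 CPM of the 16 markers, *Fcer1g* was at 30.0, 28.8 and 30.7 in null and 22.0 and 20.3 in wildtype mice, and *Tyrobp* at 30.8, 37.6 and 29.8 in null and 20.5 and 19.4 in wildtype mice. Both were above wildtype in every null mouse on this scale. Without *Lyz2* and *Csf1r*, a reduction made after the values were seen, *Fcer1g* was at 45.3, 43.1 and 48.4 in null and 48.2 and 48.0 in wildtype mice, which overlap. *Tyrobp* was at 46.4, 56.3 and 46.9 in null and 44.9 and 46.0 in wildtype mice on the reduced list, still above in every null mouse but by little in 2 of them. *Fcgr2b* was lower in every null mouse on both scales, at 91.2 to 178 against 214 to 332 per 1000 CPM of the 16 markers and 144 to 268 against 467 to 787 on the reduced list. *Fcgr1*, *Fcgr3* and *Fcgr4* were above wildtype in every null mouse on both scales. Their null means were 2.08, 1.84 and 2.17 times wildtype on the 16 markers, and 1.39, 1.23 and 1.46 times on the reduced list. The closest *Fcgr3* values there were 44.2 (null) and 43.9 (wildtype). *Trem2* and *Clec7a* were above wildtype on the 16 markers and overlapped on the reduced list. *Syk* overlapped on the 16 markers and was below wildtype on the reduced list.

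**Figure D2:**
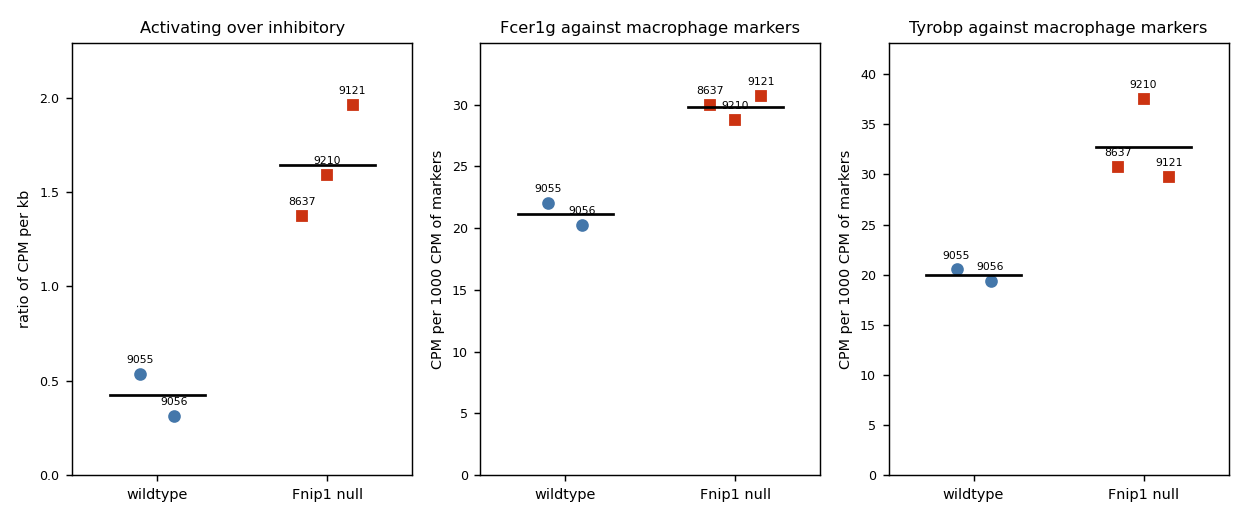
Left, ratio of activating (*Fcgr1*, *Fcgr3* and *Fcgr4*) to inhibitory (*Fcgr2b*) receptor level in CPM per kb; middle and right, *Fcer1g* and *Tyrobp* in CPM per 1000 CPM of 16 macrophage and monocyte markers, per mouse (wildtype blue circles, *Fnip1* null red squares), with a line at the group mean. The receptor ratio is at most 0.536 in wildtype and at least 1.37 in null mice.

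Of the linked receptors, *Trem2*, a lipid-sensing receptor of macrophages and microglia that signals through Tyrobp, had 4, 17 and 26 counts in null mice 8637, 9210 and 9121 and 3 and 2 counts in wildtype mice. Mice 9210 and 9121 were clearly above the rest, and mouse 8637 was within 1 count of a wildtype mouse. *Trem2* did not reach 10 counts in enough mice to be tested. Summed over the mice, its level was 5.99 times higher in null mice, with an exact 95% interval of 2.39 to 19.3 that covers counting error only.

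*Clec7a* (dectin-1), a receptor for fungal beta-glucan with a hemITAM in its own tail, was at 2.00, 2.02 and 3.22 CPM in null and 1.37 and 0.572 CPM in wildtype mice. The groups did not overlap, but wildtype mouse 9055 was closer to null mice 8637 and 9210 than to wildtype mouse 9056 in CPM. The log2 fold change was 1.33 (SE 0.448), and 1.07 without 9121. GENCODE M21 types *Clec7a* as a polymorphic pseudogene, a gene that is intact in some strains only.

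*Syk*, the kinase that docks on phosphorylated ITAMs, was at 2.53, 3.92 and 3.80 CPM in null and 2.73 and 2.12 CPM in wildtype mice. Null mouse 8637 was below wildtype mouse 9055, so the genotypes overlapped. Its log2 fold change was 0.50 (SE 0.284), the smallest of the positive ones, and 0.42 without 9121.

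Per kilobase, the order of the members also differed between the genotypes. In wildtype mice *Fcgr2b* had the highest mean level (6.82 CPM per kb), followed by *Tyrobp* (4.44), *Fcer1g* (3.60), *Fcgr3* (1.59) and *Fcgr4* (0.96), with *Clec7a*, *Syk*, *Fcgr1* and *Trem2* at 0.367 or less. Within each wildtype mouse *Fcgr2b* was above *Tyrobp*, and *Tyrobp* above *Fcer1g*. In null mice *Tyrobp* (11.3) and *Fcer1g* (8.01) came first, with *Tyrobp* above *Fcer1g* in each mouse. *Fcgr2b* (5.03) was above *Fcgr3* (4.41) in mice 8637 and 9210 and below it in 9121. *Fcgr3* was above *Fcgr4* (3.04) in each null mouse, and *Clec7a*, *Fcgr1*, *Syk* and *Trem2* were at 0.916 or less.

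**Figure D3:**
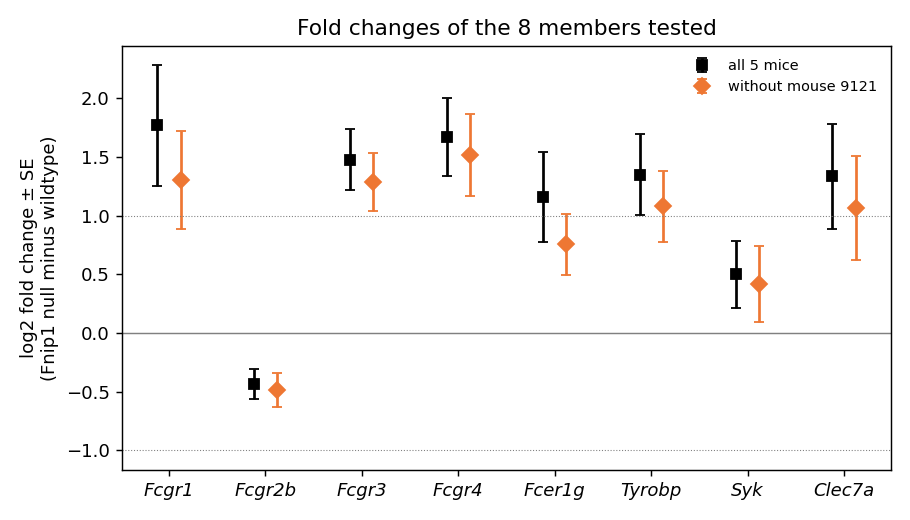
Log2 fold change (*Fnip1* null minus wildtype, edgeR's quasi-likelihood fit, vertical axis) ± SE of the 8 members tested, with all 5 mice (black squares) and without null mouse 9121 (orange diamonds); dotted lines mark 2-fold. *Fcgr2b* is below 0 (−0.44) and the other genes are between 0.50 and 1.77.

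Over the members, 7 of 9 had all null mice above both wildtype mice and 1 had them all below, beside 22.9% and 23.0% of the 13874 genes tested. The median log2 fold change of the 8 tested members was 1.34, and 1.07 without 9121, beside 0.0035 over all genes. The threshold for a call was an FDR of 5% and 2-fold. In edgeR's quasi-likelihood test with Benjamini-Hochberg adjustment over all genes no member was called (adjusted p from 0.0644 for *Fcgr3* to 0.316 for *Syk*), beside 0.404% of all genes called higher and 0.123% called lower. At an unadjusted p under 0.05, 6 members were higher and 1 lower, beside 14.0% and 11.2% of all genes. *Fcgr1*, *Fcgr3*, *Fcgr4* and *Tyrobp* were called higher by each of the other tools, edgeR's exact test (3.03% of all genes higher), its likelihood ratio test (3.44%) and DESeq2 (2.61%). The call therefore depended on the test, and since this contrast was known when the members were picked nothing is read from these shares.

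The call also depended on single mice. Without mouse 9121 no member was called by the quasi-likelihood test (0.644% of all genes called higher). Without null mouse 8637, 6 of 9 members were called higher (*Fcer1g*, *Fcgr1*, *Fcgr3*, *Fcgr4*, *Trem2* and *Tyrobp*), beside 4.74% of all genes. Mouse 8637 was the lowest null mouse in all 9 members (and in 40.4% of all genes tested), and 9121 was the highest null mouse in 8 of 9 (and in 34.0% of all genes tested).

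The rest of the pathway was described by 9 lists with 146 genes, of which 138 were counted and 103 tested. None was called by edgeR's quasi-likelihood test (36 higher and 6 lower at an unadjusted p under 0.05, beside 14.0% and 11.2% of all genes), while the exact test called 16 higher and 3 lower (beside 3.03% and 1.04% of all genes). Their median log2 fold change was 0.65, 82 were positive, and 45 had all null mice above and 10 all null mice below wildtype, beside 22.9% and 23.0% of all genes. Genes named below did not pass both thresholds in the quasi-likelihood test and are given by their values.

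Of 14 other Fc receptors, 6 were tested with a median log2 fold change of 0.19, and 2 (*Fcer1a*, the IgE-binding chain, and *Fcrl6*) had 0 counts in all mice. *Ms4a2*, the beta chain of the IgE receptor, had 32, 29 and 27 counts in null and 9 and 8 counts in wildtype mice (log2 fold change 1.71, SE 0.350). *Fcgrt*, the neonatal Fc receptor that recycles IgG and albumin and is expressed in kidney epithelium, was at 187, 185 and 242 CPM in null and 273 and 291 CPM in wildtype mice (−0.46, SE 0.142). *Fcrls*, an Fc receptor-like scavenger receptor of macrophages and microglia, had 10, 19 and 16 counts in null and 0 and 6 in wildtype mice, and *Trim21*, the cytosolic antibody receptor, overlapped between the genotypes (0.37, SE 0.257).

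The other ITAM adaptors, mostly those of lymphocyte receptors, differed in sign between T and B cell chains. Of 7, 5 were tested, and 4 of these were positive (median 1.06, and 0.32 without 9121). The T cell receptor chain *Cd3d* had 14, 12 and 22 counts in null and 3 and 7 in wildtype mice. *Cd3g* had 14, 23 and 53 counts in null and 13 and 4 in wildtype mice, and *Cd3e* overlapped between the genotypes. The B cell receptor chain *Cd79b* was the negative one, with 9, 1 and 11 counts in null and 24 and 21 in wildtype mice (−1.74, SE 0.606).

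Of 20 other receptors that pair with an ITAM adaptor or carry a hemITAM, 5 were tested (median 1.23). Each of these had all null mice above wildtype, beside 22.9% of all genes tested. *Lilra5*, an activating leukocyte immunoglobulin-like receptor, was at 2.00, 2.02 and 2.90 CPM in null and 0.994 and 0.972 CPM in wildtype mice (1.23, SE 0.316). *Klrk1* (NKG2D, an activating NK receptor) had a log2 fold change of 1.76 (SE 0.508), *Cd300ld* 1.36 (SE 0.423) and *Clec9a*, a dendritic cell receptor for dead cells, 0.97 (SE 0.371).

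Downstream of Syk, 33 of 34 genes were tested (median 0.53, and 0.16 without 9121), 10 with all null mice above and 5 with all below wildtype, beside 22.9% and 23.0% of all genes tested. *Blnk*, an adaptor phosphorylated by Syk and best known in B cells, was at 29.4, 44.1 and 41.8 CPM in null and 19.3 and 19.2 CPM in wildtype mice (log2 fold change 0.996, SE 0.189), against the direction of the B cell markers. *Vav3*, a guanine nucleotide exchange factor, had a log2 fold change of 0.71 (SE 0.139), and the Src-family kinase *Fyn* 0.92 (SE 0.189).

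Inhibitory receptors and phosphatases were mostly opposite in sign to *Fcgr2b*: of 23 tested, 16 were positive (median 0.51). Of the 23, 12 had all null mice above and 1 all below wildtype, beside 22.9% and 23.0% of all genes tested. *Sirpa*, the ITIM receptor for CD47, was at 91.3, 97.7 and 101 CPM in null and 66.7 and 65.4 CPM in wildtype mice (0.55, SE 0.087). *Inpp5d* (SHIP1), the lipid phosphatase that Fcgr2b recruits, was at 8.43, 9.99 and 10.7 CPM in null and 6.21 and 3.72 CPM in wildtype mice (0.97, SE 0.256). *Cd33*, a sialic acid-binding receptor placed in this list, had a log2 fold change of 2.07 (SE 0.460) and the ITIM receptor *Cd72* 1.25 (SE 0.326).

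Among 13 ligands, the 7 antibody constant region genes were not among the symbols counted, and 3 of the others were tested. *Apoe*, which encodes an apolipoprotein and ligand of Trem2, was at 376, 551 and 873 CPM in null and 165 and 146 CPM in wildtype mice. Every null mouse was well above wildtype, 9121 most of all (log2 fold change 1.95, SE 0.354, adjusted p = 0.0655 in edgeR's quasi-likelihood test). *Anxa1*, an annexin, had 0.88 (SE 0.229), and *Clu* (clusterin, another apolipoprotein) overlapped between the genotypes.

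Of 14 genes of the Trem2-linked lipid-associated macrophage program, 13 were tested, 12 of them positive with a median of 0.39. The exception was *Lpl*, lipoprotein lipase, at 765, 489 and 559 CPM in null and 1612 and 1725 CPM in wildtype mice (−1.47, SE 0.213). *Spp1* (osteopontin) was at 1906, 2774 and 2636 CPM in null and 794 and 813 CPM in wildtype mice (1.60, SE 0.233). Both are far above any macrophage marker here, and both are also made by cells other than macrophages. *Itgax* (CD11c) had a log2 fold change of 1.54 (SE 0.242) and the phagocytic receptor kinase *Axl* 1.17 (SE 0.277).

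All 8 myeloid transcription factors listed were tested, 7 of them positive with a median of 0.46. *Irf5* was at 7.48, 7.91 and 14.4 CPM in null and 17.9 and 23.2 CPM in wildtype mice (−1.04, SE 0.306). *Spi1*, which encodes PU.1, overlapped with 2.36, 3.09 and 5.49 CPM in null and 2.42 and 1.20 CPM in wildtype mice, and *Irf8* had 0.78 (SE 0.396).

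The 8 interferon gamma response genes, 7 of them tested, were highest as a list in mouse 9121. Their median log2 fold change was 0.99 with all mice and 0.06 without 9121, whereas the median of the members was 1.34 and 1.07. *Gbp3*, an interferon-induced GTPase, was at 6.07, 10.5 and 47.8 CPM in null mice 8637, 9210 and 9121 and at 7.89 and 4.86 CPM in wildtype mice. *Irf1*, an interferon-induced transcription factor, was at 17.5, 17.7 and 40.1 CPM in null and 14.1 and 10.4 CPM in wildtype mice, and *Ciita*, the regulator of MHC class II genes, at 7.13, 6.12 and 14.4 CPM in null and 5.59 and 4.29 CPM in wildtype mice. Both were above wildtype in every null mouse, most in 9121. The part of interferon gamma in the differences of the 9 genes was not tested.

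**Figure D4:**
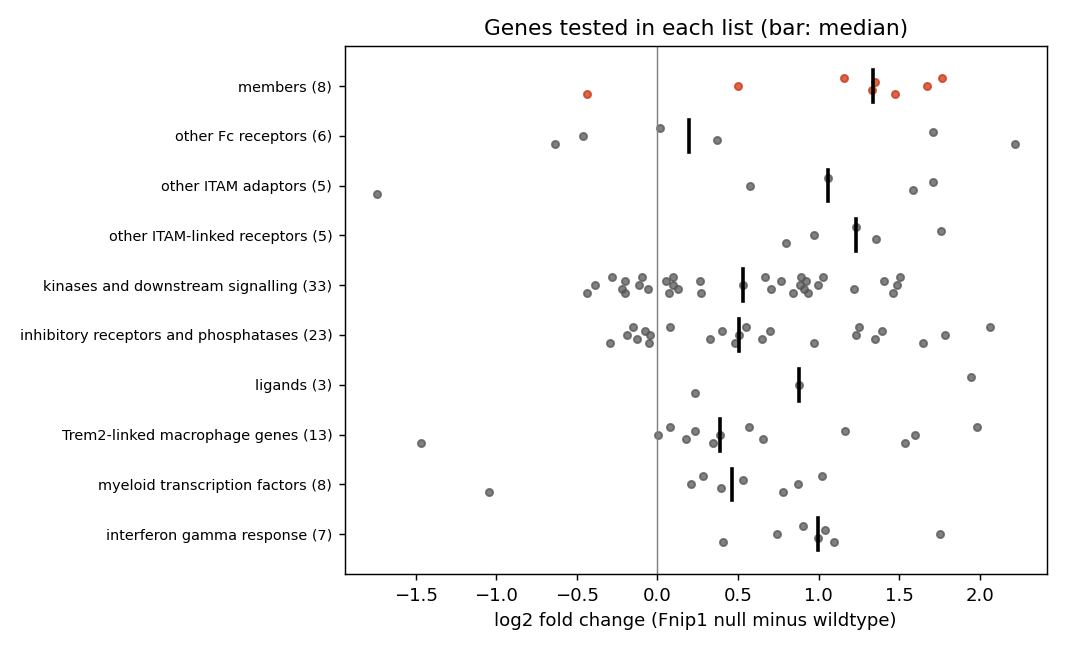
Log2 fold changes (*Fnip1* null minus wildtype, horizontal axis) of the genes tested in each list, with the number of genes tested in parentheses; each dot is a gene and the bar the median of its list. The members (red) have a median of 1.34, and the other lists have medians from 0.19 to 1.23.

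The genes whose pattern over the 5 mice was most like the mean pattern of the tested members were *Arhgap9*, *Epn3*, *Ang*, *Fam189a2* and *Adcy7*. Their root-mean-square distance from it was 0.0324 to 0.0642 on the log2 scale, with 0.5 CPM added to each value. They were picked as the closest of 13265 genes compared, so their small distances follow from the choice. The 8 tested members, which were not picked by distance, lay at 0.152 (*Fcer1g*) to 0.686 (*Fcgr2b*). *Fcgr2b* was thus the tested member furthest from this mean pattern, of which it is itself a part.

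*Fcgr2b*, *Fcgr4*, *Fcgr3* and *Fcer1g* lie within one stretch of chromosome 1, while *Fcgr1* is on chromosome 3. *Fcgr2b* (chr1:170958617-170976547, minus strand, GRCm38) is followed by *Fcgr4* (chr1:171018920-171029761, plus strand), *Fcgr3* (chr1:171051174-171064935, minus strand) and *Fcer1g* (chr1:171229572-171234365, minus strand). Of 35 genes annotated from *Atf6* to *Dedd*, 23 were counted and 17 tested. The 13 tested genes that are no members had log2 fold changes from −0.29 (*Cfap126*) to 0.69 (*Pcp4l1*), with a median of −0.13, and none was called by edgeR's quasi-likelihood test. *Pcp4l1*, the tested neighbour with the highest value, was at 6.48, 9.16 and 10.3 CPM in null and 5.22 and 5.49 CPM in wildtype mice. *Adamts4*, too low to be tested, had 9, 12 and 21 counts in null and 7 and 2 in wildtype mice. Its mean CPM was 2.86 times higher in null mice. The neighbouring *Fcgr2b* and *Fcgr4* had opposite signs.

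**Figure D5:**
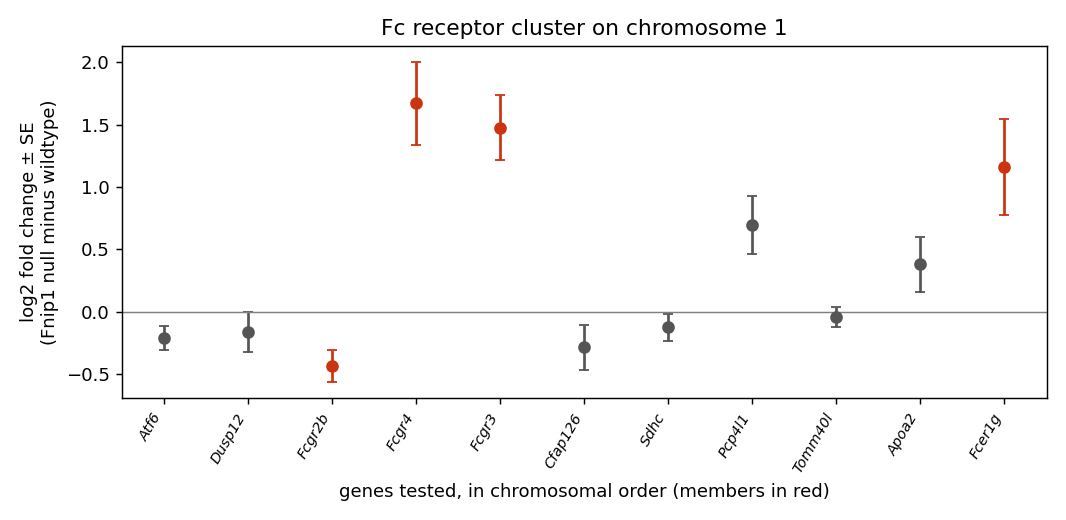
Log2 fold change (*Fnip1* null minus wildtype, vertical axis) ± SE of the 11 tested genes from *Atf6* to *Fcer1g* on chromosome 1, in chromosomal order and not to scale, with members in red. *Fcgr4*, *Fcgr3* and *Fcer1g* are above 1, and the other genes are between −0.44 and 0.69.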

How the data were processed

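The authors sequenced RNA of kidney cortex, 1 library per mouse (3 *Fnip1* null, 2 wildtype). Low-quality reads were filtered, and reads were aligned to mm10 with TopHat2 2.1.0 and counted per gene symbol with HTSeq 0.6.1 (versions per the labels). The mouse number 9210 is that of the label, and the deposited file gives the same digits in another order. The deposited values are raw counts, not normalized. Of all counted records 39.0% to 42.8% fell on no gene, on several genes or on several places, and were left out. Whether counting used strand is not given in the sources used here.

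The analysis used edgeR 4.0.16 and limma 3.58.1 under R 4.3.3. Genes with fewer than 10 counts in more than 2 mice were not tested. After TMM scaling, null and wildtype mice were set against each other by edgeR's quasi-likelihood test (Benjamini-Hochberg adjustment over 13874 genes). A gene was called at an FDR of 5% and 2-fold. Each SE is the size of the log2 fold change over the square root of its F statistic. The pipeline was tested on simulated data. Alternatives were the exact and likelihood ratio tests, legacy quasi-likelihood, DESeq2 1.42.0, other scalings, filters and thresholds, and each mouse left out. An exact permutation test of 1 gene in 3 against 2 mice cannot go below p = 0.1.

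The 9 members, the 9 lists of linked genes and the 9 marker lists were chosen with earlier results of these data known. Named were *Fnip1*, the members, per linked list up to 4 genes with the smallest p, the 5 most similar genes with a mean of at least 1 CPM, and per marker list those at 0 and the most abundant. Some items that this rule names are not reported here. *Adgre1*, *Pcp4l1*, *Cfap126*, *Adamts4*, the genes on the sex chromosomes and further marker genes were named after their values were seen. Coordinates and exon lengths are from GENCODE M21 (GRCm38), and start regions from RefSeq (GRCm38.p6).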

Additional observations from a re-analysis of the deposited data

How the results depend on the processing

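No member changed direction in any setting run (log2 fold change of *Fcgr3* 1.29 to 1.65, *Fcgr4* 1.29 to 2.14, *Fcgr1* 1.30 to 2.03, *Fcgr2b* −0.60 to −0.26). The calls depended on the test. Over all genes, 73 were called by the quasi-likelihood test, 565 by the exact test, 628 by the likelihood ratio test and 482 by DESeq2. Of the members 0 were called by the quasi-likelihood test and 4 by each of the other 3. Of the linked genes 0 were called by the quasi-likelihood test, 19 by the exact test, 21 by the likelihood ratio test and 12 by DESeq2, 2 by the legacy method, 3 with scaling by library size only, 2 without the low-count filter, 2 with filterByExpr and 1 at FDR alone. With scaling by library size only, the median log2 fold change of all genes was 0.17 instead of 0.0035, with 73 genes higher and 12 lower, against 56 and 17.

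Leaving out 1 mouse gave 0 to 963 calls over all genes, 0 to 6 for members and 0 to 22 for linked genes. The highest counts came without null mouse 8637. Without 9121 there were 136 calls over all genes, and without null mouse 9210 or either wildtype mouse there were 0. With 1 wildtype mouse left, that mouse is assumed to vary like the others. No paired analysis was possible because the labels give mouse numbers that the genotypes do not share. Depth limits *Trem2*, at 3 and 2 counts in wildtype mice 9055 and 9056, and *Fcgr1*, at 10 and 12. It also limits *Clec7a*, at 22 and 10 counts in these mice, and *Fcgr4*, at 25 and 15. The log2 fold change of *Clec7a* was 2.07 without wildtype mouse 9055 and 0.82 without 9056.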
